A study of Mus musculus with 4 samples.

Results

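Core spliceosome protein genes were taken by symbol: genes named Snrp (small nuclear ribonucleoprotein), Sf3a and Sf3b (splicing factor 3 subunits), Prpf (pre-mRNA processing factor), Lsm (Sm-like) followed by a digit, and U2af1 and U2af2. The rule found 47 of the 22730 gene symbols in the expression tables. For a symbol with more than 1 transcript, which held for 8 of the 47, the transcript with the most reads over all libraries stands for the gene. Total thymocytes, the developing T cells of the thymus, were sequenced from 2 hnRNP L knockout (KO) mice and 2 wild-type mice, with 1 library per mouse. The gene removed, Hnrnpl, encodes an RNA-binding protein that regulates splicing, and the series asks how its loss alters splicing in thymic pre-T cells.

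The genotypes are hnRNP L KO and wild type. The labels give all 4 mice a mixed genetic background, made up of C57BL/6, the LckCre transgenic strain, the CD45.1 strain and the fluorescent reporter strain Gt(ROSA)26Sortm4(ACTB-tdTomato,-EGFP)Luo. The Lck promoter of such transgenes is active in T-lineage cells, so a deletion driven by it would leave the gene in other cells of the thymus. The sources used here give neither ages nor which mice carried Cre. In RNA from total thymocytes, fewer cells of a type and less RNA per cell cannot be told apart.

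The spliceosome removes introns from pre-mRNA. It is built from small nuclear RNAs held by a ring of Sm proteins, or of LSm proteins on U6 RNA, together with proteins particular to the U1, U2 and U4/U6.U5 particles. U1 recognises the start of the intron, U2AF and U2 with its SF3A and SF3B subunits recognise its end and branch point, and the tri-snRNP brings the catalytic RNAs around Prpf8.

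Several libraries stood apart. Hnrnpl itself had 467 and 208 CPM (counts scaled to library size by TMM) in KO replicates 1 and 2, or 56.0% and 25.0% of the wild-type mean, against 854 and 813 CPM in the wild types. Both KO libraries were below both wild types, with transcript remaining in each, and by edgeR the difference missed the threshold (log2 fold change -1.30, SE 0.42, adjusted p = 0.486). KO replicate 1 held 4116 reads of the Y-linked gene Ddx3y, and the other libraries 1 to 17, which puts the KO mice in different sexes. Reads of small RNA genes made up 2.13% and 1.13% of gene reads in the KOs and 8.21% and 1.44% in wild-type replicates 1 and 2. Gene reads numbered 27548708 and 28677506 in the KOs and 41775795 and 51544714 in the wild types. All 13 thymocyte markers were above 10 CPM in every library, with sums of 19494 and 15462 CPM in KO replicates 1 and 2 and 18798 and 18698 CPM in the wild types. The 6 erythroid markers summed to 287 and 60.5 CPM in the KOs and 87.1 and 78.4 CPM in the wild types, and the 9 stroma and epithelium markers to 229 and 265 CPM in the KOs and 223 and 238 CPM in the wild types. For the 6 B cell markers the sums were 43.3 and 35.1 CPM in the KOs and 38.1 and 39.8 CPM in the wild types, and for the 8 myeloid markers 220 and 214 CPM in the KOs and 214 and 202 CPM in the wild types. No list was at 0 in every library. The part of sex, small RNA content and these cell types in the values that follow was not tested.

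The spliceosome genes together took 0.611% and 0.648% of gene reads in the KOs and 0.558% and 0.625% in the wild types, ranges that overlap. Their levels spanned more than 3 orders of magnitude in RPKM, the authors' read count scaled by transcript length and mapped reads. Sf3b1, which contacts the branch point within U2, was the most abundant per length, at 86.3 and 72.0 RPKM in the KOs and 84.2 and 92.9 RPKM in the wild types. Snrpb, an Sm ring protein, came next with 67.1 and 76.2 RPKM in the KOs and 60.1 and 83.1 RPKM in the wild types. Prpf8, the scaffold of the catalytic centre, had 53.7 and 61.8 RPKM in the KOs and 43.0 and 56.5 RPKM in the wild types. The libraries of these 3 genes overlap in range between neighbours in the order. Within each library Prpf8 was the lowest of the 3, while Snrpb was above Sf3b1 in KO replicate 2. The order of Sf3b1 and Snrpb is thus not firm. Over all 4 libraries Lsm3 (48.8 RPKM), Sf3b3 (41.6), Snrpe (36.2) and Snrpd3 (33.6) followed.

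At the other end stood Snrpn, an Sm protein known from brain, with 4 and 4 reads in the KOs and 6 and 16 reads in the wild types and no read on a known junction. It did not pass the filter on low counts, which left 46 genes tested. The 3 brain markers, sought because of Snrpn, summed to 0.615 and 1.07 CPM in the KOs and 0.642 and 0.960 CPM in the wild types. Lsm7 (0.387 RPKM over all 4 libraries), Prpf40b (0.557), Lsm5 (1.35) and Snrpc (2.21) were the next lowest.

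**Figure D1:**
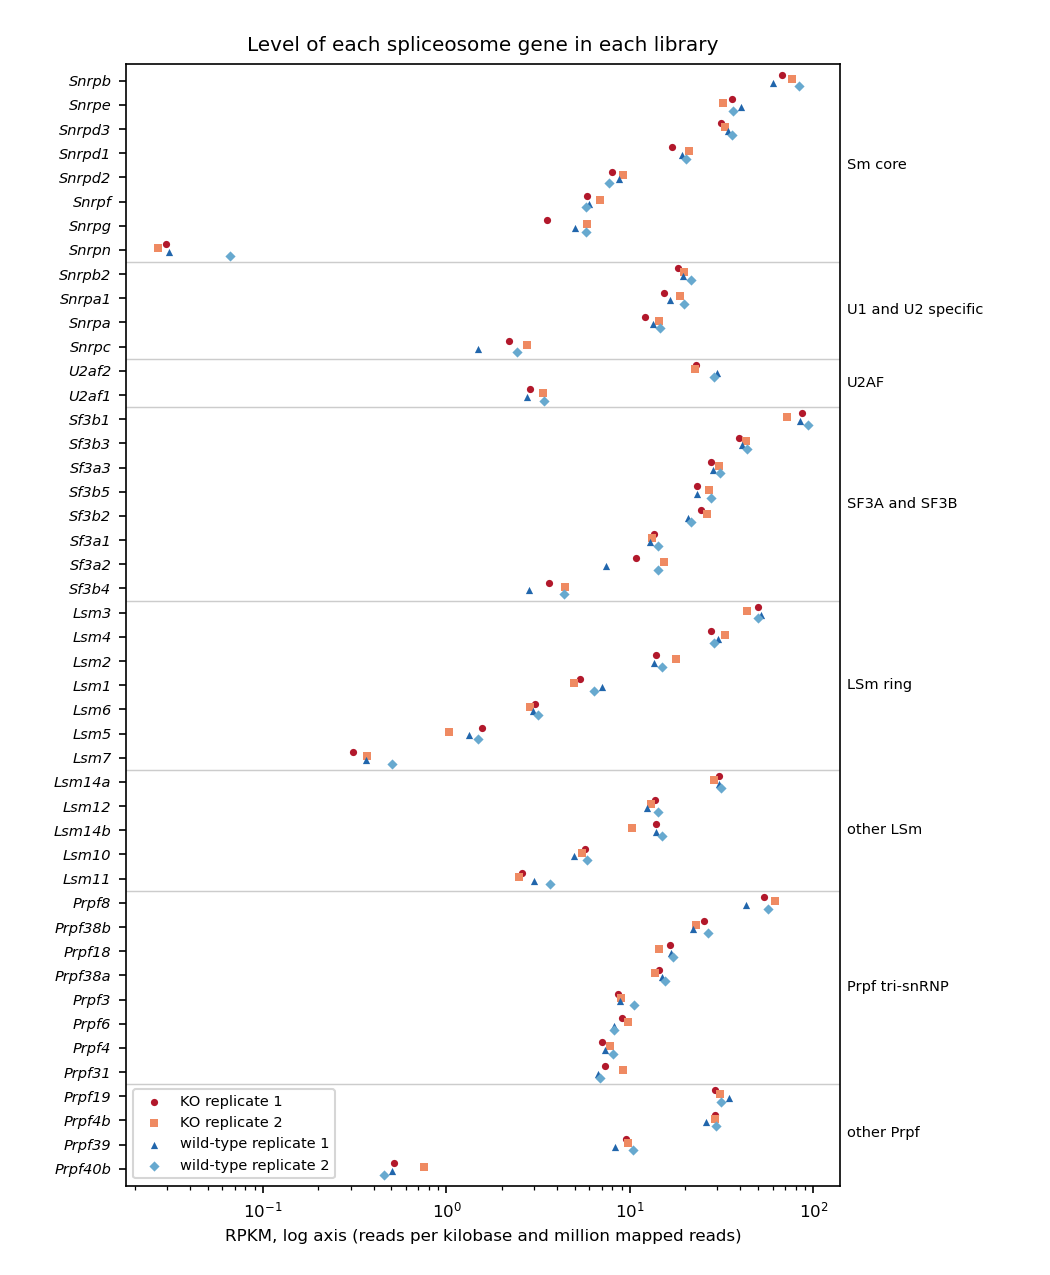
Level of 46 of the 47 genes in RPKM on a log axis, grouped by role, with 1 marker per library (KO replicates as circles and squares, wild types as triangles and diamonds). Sf3b1, Snrpb and Prpf8 lie highest, Snrpn and Lsm7 lowest, and the 4 libraries of a gene lie close together beside the differences between genes.

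In 6 of these genes junction reads outnumbered transcript reads. A read that crosses a known exon junction would usually also be counted on the transcript, yet U2af1 had 2499 known junction reads beside 1038 transcript reads over the 4 libraries. Lsm5 had 599 beside 250, Snrpg 1465 beside 743, Lsm7 119 beside 69, Snrpc 832 beside 612 and Snrpe 7416 beside 6583. For U2af1, which has 2 transcripts, the junction reads are of the whole symbol and the transcript reads of 1 transcript. Each of the other genes named here has 1 transcript. As a description of the tables, genes with more than 100 transcript reads and at least 2 known junctions were compared. Of these, 5 of 44 spliceosome genes (11.4%) had more junction than transcript reads, against 119 of 11369 genes in all (1.05%). The median ratio of junction to transcript reads was 0.185 for the spliceosome genes and 0.109 for all genes.

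Where those reads lay differed by gene. In Snrpe, whose protein is part of the Sm ring, 1 known junction (mm9 chromosome 1, 135500653 to 135503078) held 94.5% of the known junction reads, with 1123 and 1270 reads in the KOs and 1858 and 2757 reads in the wild types. The next Snrpe junction held 269 reads over the 4 libraries. In Snrpg and Snrpc the fullest junction held 70.6% and 62.7%, and in U2af1 40.5%. A minimum mapping quality of 10 is stated for the transcript counts and none for the junction counts, which would remove reads that map equally well elsewhere from the transcript counts alone. Its part in the excess was not tested. The transcript levels of these 6 genes are therefore uncertain. By reads per known junction Snrpe ranked 1st with 1854 reads, ahead of Sf3b1 with 1239, a rank that rests on the 1 Snrpe junction given above.

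**Figure D2:**
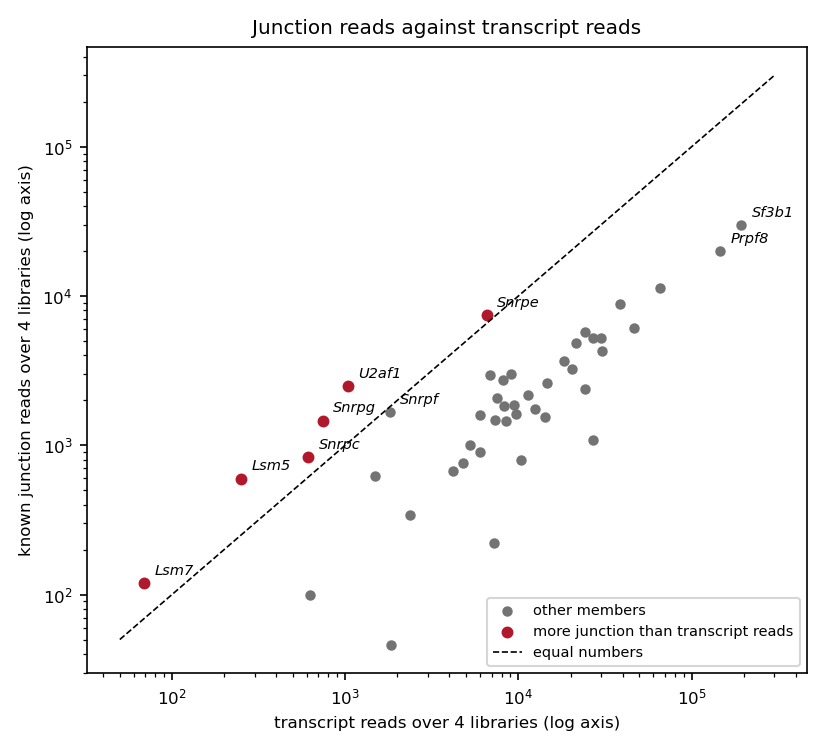
Known junction reads against transcript reads, both summed over the 4 libraries on log axes, for the genes with a known junction read. The 6 genes in red lie above the dashed line of equal numbers, and Sf3b1 and Prpf8 lie far below it.

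Between KO and wild type, no spliceosome gene changed past the threshold. By edgeR 0 of the 46 tested genes had an adjusted p under 0.05, where 0.00728% of all 13733 tested genes did, and the smallest adjusted p was 0.452. At an unadjusted p under 0.05 there were 3, all with lower values in KO (Lsm11, U2af2 and Lsm1), or 6.52% of 46 against a background of 9.9%. DESeq2 called 0 as well, where 0.931% of the 12135 genes it gave an adjusted p were called, with 3 at an unadjusted p under 0.05 against a background of 9.69%. limma-voom called 0, as it did of all tested genes, with 4 at an unadjusted p under 0.05 against a background of 9.44%. The log2 fold changes ran from -0.40 to 0.39. Of these, 16 were positive and 30 negative, where 7022 were positive and 6711 negative over all 13733 tested genes. The median was -0.04 against 0.01 over all tested genes. Under upper-quartile scaling the split of the spliceosome genes was 24 positive and 22 negative.

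The intervals of the edgeR fit show how large a difference between these KO and wild-type libraries the data leave room for. Hnrnpl transcript remained at 56.0% and 25.0% of the wild-type mean in KO replicates 1 and 2. Transcript reads do not show whether protein was left. The intervals are therefore not taken to bound what a full loss of Hnrnpl would do. For 43 of the 46 genes the 95% interval lay within a 2-fold change in either direction, and for 34 within 1.5-fold. Over all tested genes the same held for 10031 and 6585 of 13733. The exceptions at 2-fold were Sf3a2, Lsm7 and Prpf40b. Their intervals ran from -0.72 to 1.27, from -1.50 to 0.77 and from -0.23 to 1.02 on the log2 scale.

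**Figure D3:**
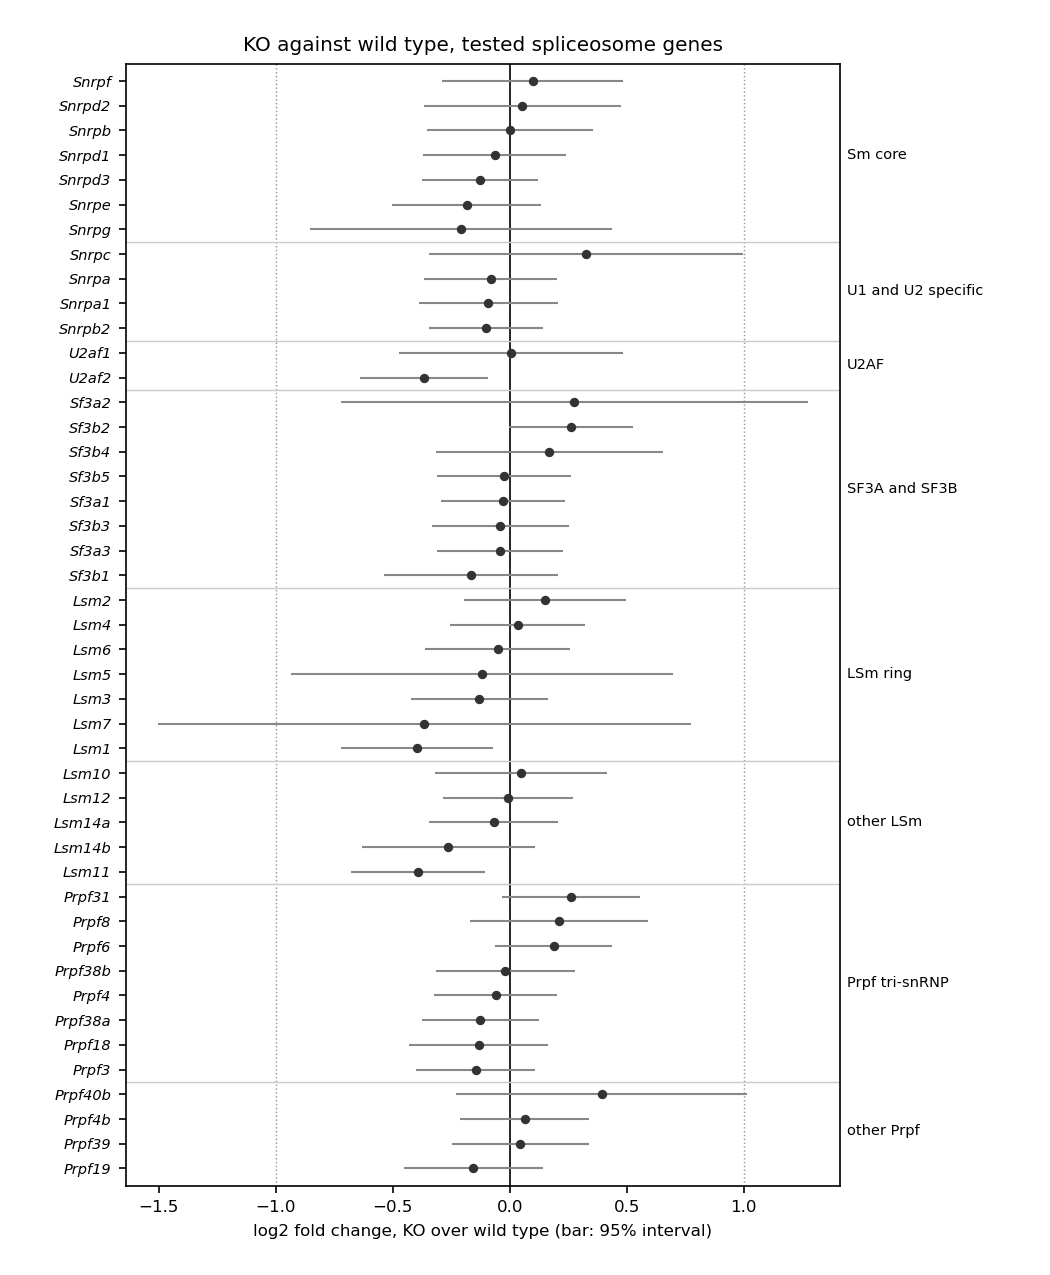
Log2 fold change of KO over wild type with its 95% interval from the edgeR fit for 45 of the 46 tested genes, grouped by role and sorted within each group. Dotted lines mark a 2-fold change, which the intervals of Sf3a2, Lsm7 and Prpf40b cross, and estimates lie between -0.40 and 0.39.

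Libraries of 1 genotype were also compared with each other. The KO libraries differed from each other by more than the group means did for 30 of the 46 genes, and the wild types for 23. The same counts were not made over all tested genes. A gap between 2 single libraries varies more than a gap between means of 2, so these counts describe the spread only. KO replicate 2 was above KO replicate 1 for 27 of 46 genes, and for 6740 of 13733 over all tested genes. Without overlap between the groups, 5 genes had both KO libraries above both wild types, where 23.3% of all tested genes did, and 11 had them below, where 21.4% did. Of the 46, these are 10.9% and 23.9%.

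Among the Sm ring genes, 2 of 7 tested had a positive and 5 a negative log2 fold change, with a median of -0.06. Snrpb had 188 and 208 CPM in the KOs and 173 and 224 CPM in the wild types. The KO values fell between those of the wild types, with a log2 fold change of -0.0011 (SE 0.15). Snrpe had 44.1 and 38.5 CPM in the KOs and 50.8 and 43.0 CPM in the wild types, which overlap, with a log2 fold change of -0.18 (SE 0.14, edgeR adjusted p = 0.627). Leaving out KO replicate 1 gave -0.29 and leaving out KO replicate 2 gave -0.09, while leaving out wild-type replicate 1 gave -0.06 and wild-type replicate 2 -0.30. Snrpd3 was lower in both KOs, at 47.3 and 48.7 CPM, than in the wild types, at 52.7 and 52.0 CPM, and did not pass (log2 fold change -0.13, SE 0.11).

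The proteins particular to U1 and U2 had 1 positive and 3 negative values among 4 genes. Snrpa, the U1 A protein, had 41.1 and 47.8 CPM in the KOs and 46.5 and 47.6 CPM in the wild types (log2 fold change -0.08, SE 0.12). Snrpa1, the U2 A′ protein, had 47.9 and 57.0 CPM in the KOs and 53.0 and 59.0 CPM in the wild types (-0.09, SE 0.13). Both overlapped between groups. Snrpc, which helps U1 bind the 5′ splice site, had 4.16 and 5.07 CPM in the KOs and 2.90 and 4.45 CPM in the wild types, the lowest value being that of the wild type rich in small RNA.

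U2AF is a dimer that marks the end of an intron, in which U2af2 binds the pyrimidine tract and U2af1 the terminal AG. U2af2 (NM_001205231, mm9 chromosome 7, 5013745 to 5031547) had 126 and 122 CPM in the KOs and 168 and 152 CPM in the wild types. Both KO libraries were below both wild types, and their gap exceeded the spread within either group. The log2 fold change of -0.37 (SE 0.12) did not pass the edgeR test (adjusted p = 0.452, and 0.130 to 0.998 over the alternatives). Its 4865 known junction reads did not show that difference, with a log2 fold change of -0.04 (SE 0.16). U2af1 had 6.44 and 7.46 CPM in the KOs and 6.39 and 7.45 CPM in the wild types, nearly the same range in both groups.

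SF3A and SF3B bind the branch point with U2, and of their 8 genes 3 were positive and 5 negative. Sf3b2, which binds next to the branch point, had 198 and 207 CPM in the KOs and 172 and 167 CPM in the wild types. All KO values lay above all wild-type values, without passing the test (log2 fold change 0.26, SE 0.11, edgeR adjusted p = 0.501). By known junction reads the value was 0.34 (SE 0.16). Sf3b1 had 1336 and 1087 CPM in the KOs and 1336 and 1383 CPM in the wild types, where KO replicate 2 stood apart (-0.17, SE 0.16). The value was -0.33 without KO replicate 1 and -0.03 without KO replicate 2. Sf3a2 had 45.2 and 62.7 CPM in the KOs and 31.7 and 57.4 CPM in the wild types, a spread within each group larger than that between them.

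LSm proteins form a ring in the nucleus that binds U6 RNA, and Lsm1 in place of Lsm8 makes the cytoplasmic ring that takes part in mRNA decay. Of 7 such genes 2 were positive and 5 negative, with a median of -0.12. Lsm1 (NM_026032, mm9 chromosome 8, 26896063 to 26914447) had 31.4 and 28.4 CPM in the KOs and 42.5 and 36.3 CPM in the wild types. Both KO libraries were lower than both wild types, and the log2 fold change of -0.40 (SE 0.14) did not pass (edgeR adjusted p = 0.474). Known junction reads gave -0.49 (SE 0.22). Lsm4 had 65.3 and 75.5 CPM in the KOs and 72.7 and 64.8 CPM in the wild types, which overlap (0.03, SE 0.12).

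Outside those rings, Lsm10 and Lsm11 belong to the U7 particle, which processes histone mRNA ends, and Lsm14a and Lsm14b to cytoplasmic mRNA granules. Lsm11 (NM_028185, mm9 chromosome 11, 45741771 to 45758437) had 41.8 and 39.1 CPM in the KOs and 49.3 and 56.9 CPM in the wild types. The groups did not overlap, and the log2 fold change of -0.39 (SE 0.12) had the smallest adjusted p of the 46 genes, 0.452 by edgeR, level with that of U2af2. Its 221 known junction reads gave -0.11 (SE 0.35). Its U7 partner Lsm10 had 13.0 and 12.2 CPM in the KOs and 11.6 and 12.8 CPM in the wild types, which overlap.

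Lsm14b had 87.6 and 63.5 CPM in KO replicates 1 and 2 and 90.2 and 91.0 CPM in the wild types. KO replicate 1 lay close to the wild types and KO replicate 2 well below. The log2 fold change was -0.26 (SE 0.16, edgeR adjusted p = 0.571), or -0.52 without KO replicate 1 (0.057, the lowest adjusted p of any spliceosome gene under any alternative) and -0.05 without KO replicate 2. Lsm14a had 208 and 190 CPM in the KOs and 212 and 205 CPM in the wild types.

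Among the Prpf genes of the tri-snRNP, the activated complex and the second step of splicing, 3 of 8 were positive and 5 negative. Prpf31, which holds the U4/U6 and U5 parts together, had 57.1 and 70.0 CPM in the KOs and 53.8 and 52.0 CPM in the wild types. Both KOs were above both wild types, KO replicate 2 by more (log2 fold change 0.26, SE 0.13, edgeR adjusted p = 0.519), and the value was 0.40 without KO replicate 1 and 0.11 without KO replicate 2. Prpf6, the bridge to U5, had 69.2 and 72.3 CPM in the KOs and 64.3 and 60.0 CPM in the wild types, again without overlap (0.19, SE 0.11, adjusted p = 0.561). Prpf3 ran the other way, with 59.1 and 59.1 CPM in the KOs and 62.1 and 68.7 CPM in the wild types (-0.15, SE 0.11, adjusted p = 0.631), and without wild-type replicate 2 the value was -0.07. Prpf8 had 1004 and 1128 CPM in the KOs and 824 and 1016 CPM in the wild types, which overlap (0.21, SE 0.16). Leaving out KO replicate 2 gave 0.12, wild-type replicate 1 gave 0.07 and wild-type replicate 2 gave 0.37.

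The remaining Prpf genes act at other points, and 3 of 5 were positive and 2 negative. Prpf19, a ubiquitin ligase of the activation complex, had 151 and 156 CPM in the KOs and 185 and 157 CPM in the wild types. The KOs lay just below wild-type replicate 2 and further below wild-type replicate 1 (-0.16, SE 0.13), and the value was -0.03 without wild-type replicate 1 and -0.26 without wild-type replicate 2. Prpf40b had 4.09 and 5.78 CPM in the KOs and 4.08 and 3.45 CPM in the wild types, a difference of 0.39 (SE 0.27, edgeR adjusted p = 0.609) that was 0.61 without KO replicate 1 and 0.12 without KO replicate 2. Prpf4b, a kinase, had 323 and 317 CPM in the KOs and 298 and 315 CPM in the wild types, without overlap but with a gap smaller than the spread of the wild types (0.06, SE 0.12).

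Of the 22 tested genes not valued so far in this comparison, Lsm7 (0.362 and 0.420 CPM in the KOs, 0.436 and 0.568 CPM in the wild types) had the lowest log2 fold change, -0.36 (SE 0.49), and Sf3b4, a subunit of SF3B, the highest, 0.17 (SE 0.21). Snrpg, an Sm ring protein, had 3.48 and 5.59 CPM in the KOs and 5.06 and 5.43 CPM in the wild types, with the KO libraries on either side of the wild types (-0.21, SE 0.28). Groups did not overlap for Lsm7, Snrpb2 and Prpf38a among these, all lower in KO. Snrpb2, the U2 B″ protein, had 56.5 and 59.3 CPM in the KOs and 61.1 and 63.3 CPM in the wild types (-0.10, SE 0.10). Prpf38a, which acts in spliceosome activation, had 54.6 and 50.4 CPM in the KOs and 58.1 and 56.6 CPM in the wild types (-0.13, SE 0.11).

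Counting only reads that cross known junctions, 0 of 45 tested spliceosome genes passed by edgeR, where 0.0302% of 9939 tested genes did, and 2 had an unadjusted p under 0.05, against a background of 8.80%. The sign equalled that from transcript reads for 38 of 45 genes.

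Other genes of the pathway were read from 4 further lists, and none of their members passed. Of 40 other proteins of the major spliceosome 22 were positive and 18 negative, with a median log2 fold change of 0.01. Sf1, which binds the branch point before U2, had 125 and 141 CPM in the KOs and 94.7 and 110 CPM in the wild types (0.37, SE 0.13, edgeR adjusted p = 0.475). Of 10 proteins of the minor spliceosome, which removes a rare class of introns, 6 were positive and 4 negative, with a median of 0.04. Snrnp35 had 8.22 and 7.78 CPM in the KOs and 5.86 and 4.70 CPM in the wild types (0.60, SE 0.21, adjusted p = 0.475). Assembly and recycling factors of these particles gave 11 positive and 9 negative values of 20 tested, with a median of 0.07, and Clns1a, a chaperone of Sm proteins, had 104 and 101 CPM in the KOs and 120 and 120 CPM in the wild types (-0.22, SE 0.11). In the exon junction complex, which marks spliced mRNA, 7 of 9 were positive, with a median of 0.05.

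Splicing of the spliceosome genes' own transcripts was read from junctions. Of 440 tested junctions in 44 of these genes, 424 known and 16 putative, 0 changed in use relative to the rest of the gene by edgeR, where 0.0042% of 95139 tested junctions did. At an unadjusted p under 0.05 there were 11, or 2.50% against a background of 2.55%, 8 of them used more in KO.

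Those with the smallest p show the size of the differences. In Snrpe, the junction at mm9 chromosome 1, 135506321 to 135506741 (coordinates give the last and first exon bases beside the intron) had 21 and 21 reads in the KOs and 16 and 16 reads in the wild types. It made up 1.77% and 1.54% of the gene's junction reads in the KOs and 0.809% and 0.552% in the wild types. The log2 change in relative use was 0.90. Since 1 other Snrpe junction, given above, held 94.5% of the known junction reads, this is mainly a change relative to that junction. In Prpf4b, the junction at chromosome 13, 34991092 to 34991700 had 11 and 16 reads in the KOs and 46 and 34 reads in the wild types (-0.74). A Sf3a3 junction at chromosome 4, 124405673 to 124406703 had 2 and 1 reads in the KOs and 18 and 4 reads in the wild types (-1.46), where wild-type replicate 1 alone was high. In Snrpa1 (chromosome 7, 73214412 to 73215005) and Prpf8 (chromosome 11, 75305135 to 75305261) the log2 changes were 0.63 and 0.63, with adjusted p = 1 by edgeR for all 5.

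Putative junctions, those that the tables do not mark as known, were rare in these genes. They numbered 232 in 34 genes, 160 of them with 1 read in all, and held 1865 reads beside 160281 on known junctions. Their share was 1.15% and 1.13% in the KOs and 1.31% and 1.04% in the wild types, with 1.18% and 1.17% in the KOs and 1.16% and 1.15% in the wild types over all genes.

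A Prpf8 junction held 974 of those reads. It joined exon 23 to exon 39 of 42 (mm9 chromosome 11, 75310581 to 75321776), leaving out the 15 exons between them. It had 197 and 207 reads in the KOs and 291 and 279 reads in the wild types. The known junction from the same exon 23 had 19 and 30 reads in the KOs and 28 and 41 reads in the wild types. Into exon 39 the known junction had 113 and 167 reads in the KOs and 124 and 217 reads in the wild types, and into exon 23 it had 53 and 84 in the KOs and 68 and 95 in the wild types. Known junctions among the 15 exons left out varied. That at 75318093 to 75318170 had 442 and 555 reads in the KOs and 720 and 901 in the wild types. Another, at 75315433 to 75316000, had 13 and 22 reads in the KOs and 16 and 20 in the wild types.

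Of the reads leaving exon 23, the long junction thus took 91.2% and 87.3% in the KOs (95% exact intervals 86.6 to 94.6% and 82.4 to 91.3%) and 91.2% and 87.2% in the wild types (87.6 to 94.1% and 83.0 to 90.6%). The means were 89.3 ± 2.73% in the KOs and 89.2 ± 2.85% in the wild types (SD, n = 2 each) and differed by less than their spread. In every library the long junction had more reads than the known junction into exon 23. The shares are of reads leaving exon 23 and do not give the part of Prpf8 transcripts that skip the exons between. Without the long junction putative reads made up 0.488% and 0.512% of junction reads in the KOs and 0.625% and 0.558% in the wild types. The bases at its ends are given because both acceptor exons open with the same 4 bases (capitals), so a read that ends within them could be placed on either junction. The donor exons, 23 and 38, share no trailing base. Sequences are of the GRCm38 genome from GENCODE M21 transcripts, plus strand, at chr11:75497055-75497079 (last bases of exon 23), chr11:75499799-75499823 (first bases of exon 24) and chr11:75508274-75508298 (first bases of exon 39).
Prpf8 exon 23 end: ctctggctccaccacgttcaccaag
Prpf8 exon 24 start: ATTGtgaataagtggaacacagctc
Prpf8 exon 39 start: ATTGcaggatacctgtatggggtga
How many reads end within those bases was not tested, since the tables give no read positions.

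Exons that could be skipped were tested for 23 stretches in 15 spliceosome genes, of which 16 in 12 genes held no known junction inside and so are single exons. By edgeR 0 of the 23 passed, where 0% of 3308 tested stretches did, and 1 had an unadjusted p under 0.05 (the Prpf31 exon), against a background of 5.83%. Among the 16, 2 (12.5%) had higher inclusion in both KOs than in both wild types, where 22.3% of all stretches did. Another 3 (18.8%) had lower inclusion, where 15.2% of all stretches did. Those background shares also cover stretches that hold a known junction, which the 16 leave out. In 9 of the 16, inclusion was above 90% in every library.

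U2af1 has 2 alternative exons of 67 nt each, which are known to be used in place of one another. Both are coding, each is exon 3 of 8 in its own transcript, and they differ at 23 of 67 positions (capitals), with at most 8 identical bases in a row. They lie at GRCm38 chr17:31652502-31652568 (upstream) and chr17:31651646-31651712 (downstream) on the minus strand and are shown in transcript direction.
U2af1 upstream exon: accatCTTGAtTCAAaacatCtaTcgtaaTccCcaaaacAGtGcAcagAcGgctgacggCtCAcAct
U2af1 downstream exon: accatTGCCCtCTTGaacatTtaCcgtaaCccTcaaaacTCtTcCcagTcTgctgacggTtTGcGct

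The downstream exon predominated in every library. Of reads from the preceding exon, 21 and 47 entered the upstream exon and 116 and 131 the downstream exon in the KOs, against 52 and 75 upstream and 98 and 185 downstream in the wild types. The upstream share was 15.3% and 26.4% in the KOs (95% exact intervals 9.75 to 22.5% and 20.1 to 33.5%) and 34.7% and 28.8% in the wild types (27.1 to 42.9% and 23.4 to 34.8%). Means were 20.9 ± 7.83% in the KOs and 31.8 ± 4.12% in the wild types (SD, n = 2 each), and KO replicate 2 lay near wild-type replicate 2.

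Read from the following exon, the upstream share was 3.95% and 7.84% in the KOs and 16.7% and 3.94% in the wild types, which overlap. Means on this side were 5.90 ± 2.75% in the KOs and 10.3 ± 9.0% in the wild types (SD, n = 2 each), a difference in the same direction and smaller than the spread of the wild types. A putative junction that links both exons in 1 transcript had 4 and 5 reads in the KOs and 9 and 13 reads in the wild types. In the exon test, inclusion of the upstream exon beside the downstream one was 9.73% and 16.6% in the KOs. In the wild types it was 23.7% and 19.2%, and the difference of -8.33 points did not pass. This value averages the reads entering the upstream exon with those of the putative junction between both exons. It therefore lies below the share read from the preceding exon in every library.

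Among the single exons, Lsm14b had the widest gap after an Lsm6 exon with fewer reads. Its exon 5 of 9, of 78 nt, is coding and in frame (GRCm38 chr2:180031794-180031871, plus strand), and a putative junction skips it.
Lsm14b exon 5: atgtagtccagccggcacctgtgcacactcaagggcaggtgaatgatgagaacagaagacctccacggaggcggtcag
Inclusion, the mean of the entering and leaving junctions over that mean plus skipping reads, was 94.4% and 88.7% in the KOs (95% exact intervals on rounded reads 81.3 to 99.3% and 73.9 to 96.9%) and 75.0% and 78.6% in the wild types (63.0 to 84.7% and 68.3 to 86.8%). Skipping reads numbered 2 and 4 in the KOs and 17 and 18 in the wild types. The groups did not overlap, at 91.6 ± 4.04% in the KOs and 76.8 ± 2.53% in the wild types (SD, n = 2 each), and the difference of 14.8 points did not pass the edgeR test (adjusted p = 0.723).

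In Prpf31 the direction was the other way. Its exon 5 of 14, of 98 nt (GRCm38 chr7:3633304-3633401, plus strand), is coding and not a multiple of 3 in length, so that skipping it shifts the reading frame.
Prpf31 exon 5: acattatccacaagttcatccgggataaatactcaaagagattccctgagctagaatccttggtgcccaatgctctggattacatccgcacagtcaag
Inclusion was 85.2% and 98.0% in the KOs, with 4 and 1 skipping reads, and 100% and 100% in the wild types, with 0 and 0. A count of 0 allows skipping of up to 13.0% and 6.00% at the depth of wild-type replicates 1 and 2, so the skipping read of KO replicate 2 was not distinguishable from them. The difference of -8.43 points rested on KO replicate 1 and did not pass (edgeR adjusted p = 0.723).

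An exon of Lsm6 of 99 nt (mm9 chromosome 8, 81343886 to 81343984) was bounded by known junctions alone. Its inclusion was 22.4% and 33.3% in the KOs and 65.2% and 46.0% in the wild types. The groups did not overlap, at 27.9 ± 7.70% in the KOs and 55.6 ± 13.6% in the wild types (SD, n = 2 each). It rested on few reads, with 19 and 22 skipping in the KOs and 8 and 17 in the wild types, and did not pass (edgeR adjusted p = 0.723). In KO replicate 1 the junctions on its upstream and downstream side had 11 and 0 reads.

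The other stretches named here did not pass either. The 80 nt exon of Snrpa1 was included at 94.3% and 92.0% in the KOs and 97.0% and 93.5% in the wild types, the 177 nt exon of Lsm14a at 90.5% and 88.4% in the KOs and 92.2% and 83.3% in the wild types, and the 79 nt exon of Snrpe at 99.3% and 99.7% in the KOs and 99.7% and 99.7% in the wild types. A 103 nt stretch of Snrpa1 was at 100% and 100% in the KOs and 93.0% and 99.1% in the wild types. Its downstream junction is putative, with 1 to 4 reads per library. The junction that skips it is putative too, with 0 and 0 reads in the KOs and 4 and 1 in the wild types. A known junction from its downstream end (73214412 to 73215005) does not enter the value. A count of 0 allows skipping of up to 6.52% and 5.36% in KO replicates 1 and 2, so wild-type replicate 2 was not distinguishable from them. Of the stretches that hold a known junction, and so more than 1 exon, one in Prpf8 (mm9 chromosome 11, 75315273 to 75316191) was included at 56.8% and 72.8% in the KOs and 79.3% and 77.2% in the wild types. The groups did not overlap, and the difference of -13.5 points did not pass (edgeR adjusted p = 0.955). Skipping reads numbered 8 and 11 in the KOs and 9 and 13 in the wild types, and reads of the downstream junction 0 and 0 in the KOs and 0 and 1 in the wild types. A stretch of Lsm5 was included at 96.4% and 91.8% in the KOs and 96.5% and 98.3% in the wild types, without overlap and without passing.

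**Figure D4:**
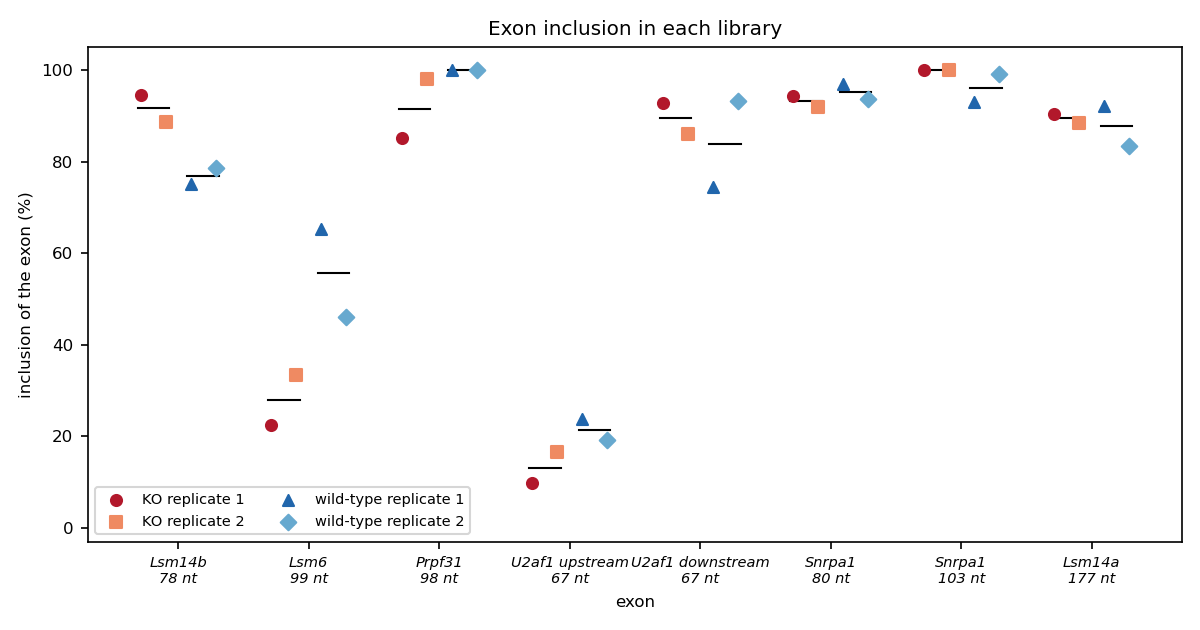
Inclusion in percent of 8 single exons in each library, KO replicates left of wild types, with a black line at each group's mean. The groups separate, higher in KO, for the Lsm14b and Snrpa1 103 nt exons. Lower in KO, also without overlap, are the Lsm6, Prpf31 and upstream U2af1 exons. For Prpf31 the separation depends on 1 skipping read of KO replicate 2, and for Snrpa1 103 nt on 1 of wild-type replicate 2. The groups overlap for the downstream U2af1, Snrpa1 80 nt and Lsm14a exons. Inclusion of the U2af1 exons counts the putative junction between them.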

How the data were processed

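RNA-seq of total thymocytes from 2 KO and 2 wild-type mice was used. Libraries were made from RNA depleted of ribosomal RNA and cut with RNase III, per the labels' protocols, and fragments of 150 to 300 bp were amplified for 12 PCR cycles. The authors deposited raw read counts per RefSeq transcript with reads divided by length (a ratio) and RPKM values, and raw counts per exon junction marked known or putative. Per the file headers, counts are of primary alignments with mapping quality of at least 10, and RPKM is scaled by mapped reads (69061265 and 75485061 in the KOs, 99782558 and 122619310 in the wild types). Per the submitters' processing notes the build is mm9. The sources used here do not give the aligner, the handling of strand or the filter on junctions, so reads of overlapping antisense genes cannot be told apart.

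The transcript with the most reads stood for each symbol. The gene test was the robust quasi-likelihood test of edgeR 4.0.16 (R 4.3.3) after TMM scaling and its own low-count filter, with Benjamini-Hochberg adjustment over all genes and a threshold of 0.05. Junctions with a total of at least 10 reads were tested with diffSpliceDGE, and exons with an edgeR model holding a term per library, each over the whole table. Exons needed 10 reads or more per library, with 5 or more in all for inclusion and for skipping. Steps were tested on simulated data. Alternatives used DESeq2 1.42.0 and limma 3.58.1. Intervals are at 95%, exact Clopper-Pearson for shares, a count of 0 allows 3 reads, and both cover counting error only. The members and lists were chosen with earlier results of these data known. Genes with full values are the 10 with the smallest p and 10 picked by role (Snrpa, Snrpa1, Snrpb, Snrpn, Sf3b1, U2af1, U2af2, Prpf8, Prpf19 and Lsm4), and other members named were chosen after their values were seen, as were exons and the Prpf8 junction. Marker lists covered thymocytes, erythroid, B, myeloid, stroma and epithelium, and brain. Values of 1 tested member are not reported here singly, though it enters the counts, and it is left out of the plots by gene.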

Additional observations from a re-analysis of the deposited data

How the results depend on the processing

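Over all genes edgeR called 1, against 0 under upper-quartile scaling, 0 by limma-voom, 0 without robust moderation, 113 by DESeq2 (72 higher, 41 lower), 62 with no filter on low counts, 3 without small RNA genes, 3 by known junction reads, 121 with the replicate block, and 2 to 427 with 1 library left out (427 without KO replicate 1, 13 without KO replicate 2, 2 without WT replicate 1, 43 without WT replicate 2). Those fits take a lone library to vary as the other genotype does. No spliceosome gene, junction or exon was called under any of these alternatives. The numbers of the mice do not pair them in the labels: deviations of same-numbered libraries correlated at 0.259, and the block is reported here only. Over all junctions 4 were called, against 1 by limma-voom, 2 among known junctions, 10 with the replicate block and 3 to 10 with 1 library left out. Over all exons 0 were called, against 2 with the replicate block and 0 without stretches that hold a known junction, an alternative chosen after seeing the data. The median over the spliceosome genes was 0.0124 under upper-quartile scaling. Of 18 genes followed, 13 kept their direction under all 13 alternatives. Near 0, Snrpa ranged from -0.194 to 0.0151 and Snrpa1 from -0.224 to 0.0211 with 1 library left out (highest without KO replicate 1), and Snrpb became 0.0527 (upper quartile), 0.0125 (voom), 0.009 (replicate block), 0.0642 (without KO replicate 1), -0.172 (without WT replicate 1), 0.202 (without WT replicate 2), 0.00256 (without small RNA genes) and 0.0701 (junction reads). U2af1 became -0.00108 (DESeq2 size factors), -0.00135 (DESeq2), -0.00356 (no filter), -0.104 to 0.125 with 1 library left out (below 0 without KO replicate 2 and, at -0.0946, without WT replicate 1), and Lsm4 -0.0745 to 0.128 (below 0 without KO replicate 2 and, at -0.0429, without WT replicate 2). Read from the downstream junction alone, inclusion differed by 50 points for the Snrpa1 103 nt stretch, where that junction has few reads, and by -3.98 points for the upstream U2af1 exon. Read from the upstream junction alone it differed by -10.8 points for the downstream U2af1 exon. For both U2af1 exons the junction used here is the putative junction between them, which has few reads. The cause of these moves was not tested. The 95% intervals of the log2 fold change were widest for Lsm7 (± 1.14, 69 reads in all) and Sf3a2 (± 1.00, 7355 reads), and Hnrnpl missed the threshold at -1.30, so read number alone does not set what can be detected.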
